A study of Mus musculus with 38 samples.

Results

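Among the reads from mouse sperm were tRNA fragments that had no exact match in the mouse genome and were placed instead on the mature tRNA sequences of a tRNA database. These are the reads described here. They were taken by a rule on the annotation alone, which collected each isoacceptor listed in an unmatched tRNA class of any of the 38 mice. An isoacceptor is a tRNA with a given amino acid and anticodon, so that tRNA-Asp-GTC carries aspartate and has the anticodon GTC. The rule found 45 isoacceptors of 20 amino acids (selenocysteine counted as 1 of them) among 795000 class members in all. Every unmatched tRNA read sat in the CCA-end class, which holds fragments that end in the trinucleotide CCA. No whole, 5′-end or 3′-end tRNA class held unmatched reads.

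The CCA tail is not written in the nuclear tRNA genes of mammals. It is added to the end of each tRNA by the enzyme TRNT1 after the precursor has been trimmed, and the amino acid is later joined to its last base. A read that carries the tail, or a base changed where a modified nucleotide was copied, can therefore fail to match the genome. In sperm, 5′ tRNA fragments dominate the tRNA reads, and fragments from the CCA end are the less abundant products.

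The sperm came from male C57BL/6J mice, an inbred strain, whose dams were fed a control (CT) or a protein-restricted (PR) diet through pregnancy and lactation. The control diet held 20% protein and the restricted diet 8%. Pups were weaned on day 21 onto either diet and killed between weeks 11 and 13. CTCT mice (n = 10) had control diet throughout, CTPR mice (n = 9) were restricted after weaning, PRCT mice (n = 9) were restricted until weaning, and PRPR mice (n = 10) were restricted throughout. Littermates shared a dam and were not independent of each other. For litter 47I, the labels used here and the study's own list gave the 2 littermates different groups, and results were also computed with them exchanged.

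Libraries held 10709017 to 13496750 reads, of which 4465281 to 7612603 matched the genome. The reads that did not match the genome were 40.7 to 58.3% of a library, and unmatched tRNA reads were 0.06 to 0.23% of those. Between 2822 and 12070 unmatched tRNA reads were counted per mouse, 280785 in all, so 3 reads, the limit that a count of 0 allows, corresponded to 0.394 to 0.672 reads per 1000000 genome-mapped reads (RPM). The spermatogenic marker mir-34c was found in all 38 libraries, at a mean of 468 RPM, beside miRNAs of muscle (mir-143, 1565 RPM) and epithelium (mir-200a, 223 RPM). Each of the 3 spermatogenic, 4 muscle and 5 epithelial markers was found in at least 36 libraries, and of 4 blood markers mir-451a was found in 37 and mir-144 in 13. In bulk RNA of this kind, fewer cells of a type and less RNA per cell cannot be told apart.

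To show what a CCA-end read meets when it is compared with the genome, the ends of tRNA genes are given for 6 isoacceptors whose unmatched shares, described further on, ran from 46.5% for tRNA-Ile-TAT through 65.0% for tRNA-Gly-CCC to 100% for tRNA-Ser-GCT. The last 24 bases of each gene are in lower case and the next 6 genomic bases, which are not part of the gene, are in capitals. All are on GRCm38.p6, as annotated by RefSeq, read 5′ to 3′ on the strand of the gene.
tRNA-Val-CAC (n-TVcac9, chr13:23446142-23446214, minus strand): ccggttcgaaaccgggcggaaacaGTTTGG
tRNA-Arg-TCG (n-TRtcg5, chr7:79466419-79466491, plus strand): caggttcgagtcctgccgcggtcgACTTGT
tRNA-Arg-TCT (n-TRtct2, chr3:122292948-122293032, minus strand): cgggttcgagtcccggcggagtcgGAACAT
tRNA-Gly-CCC (n-TGccc7, chr17:25875088-25875158, plus strand): cgggttcgattcccgggcggcgcaTGTTCT
tRNA-Ile-TAT (n-TItat14, chr13:21896938-21897031, minus strand): tgagttcgagcctcacctggagcaTGTTTT
tRNA-Ser-GCT (n-TSgct5, chr13:22050686-22050767, minus strand): tgggttcgaatcccatcctcgtcgGTCTGG
In none of the 9 gene ends that could be read, of 403 nuclear tRNA genes, was CCA the next trinucleotide. Each of them holds the GTTCGA or GTTCAA of the T loop by selection. This motif was used to find the strand, and gene ends without it were not taken. The other gene ends were not analysed here, so nothing follows from these 9 about the genes left out. Among the 9, CCA was absent after the gene at low and at high unmatched shares alike. What sets the shares of these isoacceptors apart was not tested.

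tRNA-Asp-GTC was the most abundant of the 45 isoacceptors. Its unmatched reads came to 303 ± 124 RPM (SD, n = 38), with a lowest mouse at 102, a median of 276 and a highest at 652. It held 25.5% of all unmatched tRNA reads. tRNA-Asp-GTC is a substrate of the cytosine methyltransferase Dnmt2 and carries queuosine at the wobble base.

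The next 4 were tRNA-Gly-ACC, tRNA-Glu-TTC, tRNA-Gln-CTG and tRNA-Trp-CCA. tRNA-Gly-ACC was at 123 ± 90.3 RPM (SD, n = 38; lowest 3.10, median 95.7, highest 323). Only 1 nuclear gene in the RefSeq table has this anticodon, against 16 for tRNA-Asp-GTC. tRNA-Glu-TTC was at 122 ± 98.4 RPM (lowest 35.5, median 84.7, highest 452) and tRNA-Gln-CTG at 95.3 ± 68.0 RPM (lowest 5.11, median 86.4, highest 284). tRNA-Trp-CCA, whose anticodon happens to spell CCA, was at 73.1 ± 35.3 RPM (lowest 8.83, median 64.9, highest 168). These 5 isoacceptors together held 61.2% of the unmatched reads, the first 10 held 76.1% and the first 20 held 89.4%. Relative to the mean, the spread between mice was widest for tRNA-Glu-TTC and narrowest for tRNA-Asp-GTC among these 5.

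Levels are counts of CCA-end fragments, not divided by length, of tRNAs of similar length. Below the first 5 the means declined in small steps, each less than the SD between mice. tRNA-Ile-AAT was at 47.5 ± 27.1 RPM (SD, n = 38), tRNA-Val-TAC at 36.9 ± 15.5, tRNA-Lys-CTT at 31.3 ± 19.0, tRNA-Tyr-GTA at 28.6 ± 16.8 and tRNA-Arg-TCT at 27.8 ± 22.8. tRNA-Gly-GCC and tRNA-Glu-CTC, the isoacceptors that give the well-known 5′ fragments of sperm, were at only 21.0 ± 12.9 and 16.8 ± 6.84 RPM. From tRNA-Gly-CCC at 19.2 and tRNA-Leu-CAA at 18 RPM, through tRNA-Gln-TTG at 14.4, tRNA-Ser-AGA at 13.4 and tRNA-Val-CAC at 11.7, the means reached 10.3 for tRNA-Asn-GTT and 9.28 for tRNA-Arg-TCG, the last of the 20 most abundant. tRNA-His-GTG, which receives an extra guanosine at its 5′ end after transcription, was at 5.68 RPM and tRNA-Ile-TAT, whose genes carry an intron, at 2.50. At the low end, tRNA-Pro-TGG was at 0.588 RPM and tRNA-SeC-TCA, which inserts selenocysteine, had no read in 36 mice. No isoacceptor for phenylalanine was among the 45, and methionine tRNA was listed as tRNA-Met-CAT with no separate initiator.

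Depth limited what could be said of the rarer isoacceptors. Read counts below are those of the isoacceptors themselves, whose sum was 55.8 to 163% of the deposited class total of the same mouse. Of the 45, 29 were seen in all 38 mice, and a single mouse had between 34 and 44 of them. The mean was over 100 reads a mouse for 15 isoacceptors and over 10 reads for 41. By amino acid, aspartate had 25.5% of the unmatched reads, glycine 14.6%, glutamate 11.6%, glutamine 9.6% and tryptophan 6.34%.

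**Figure D1:**
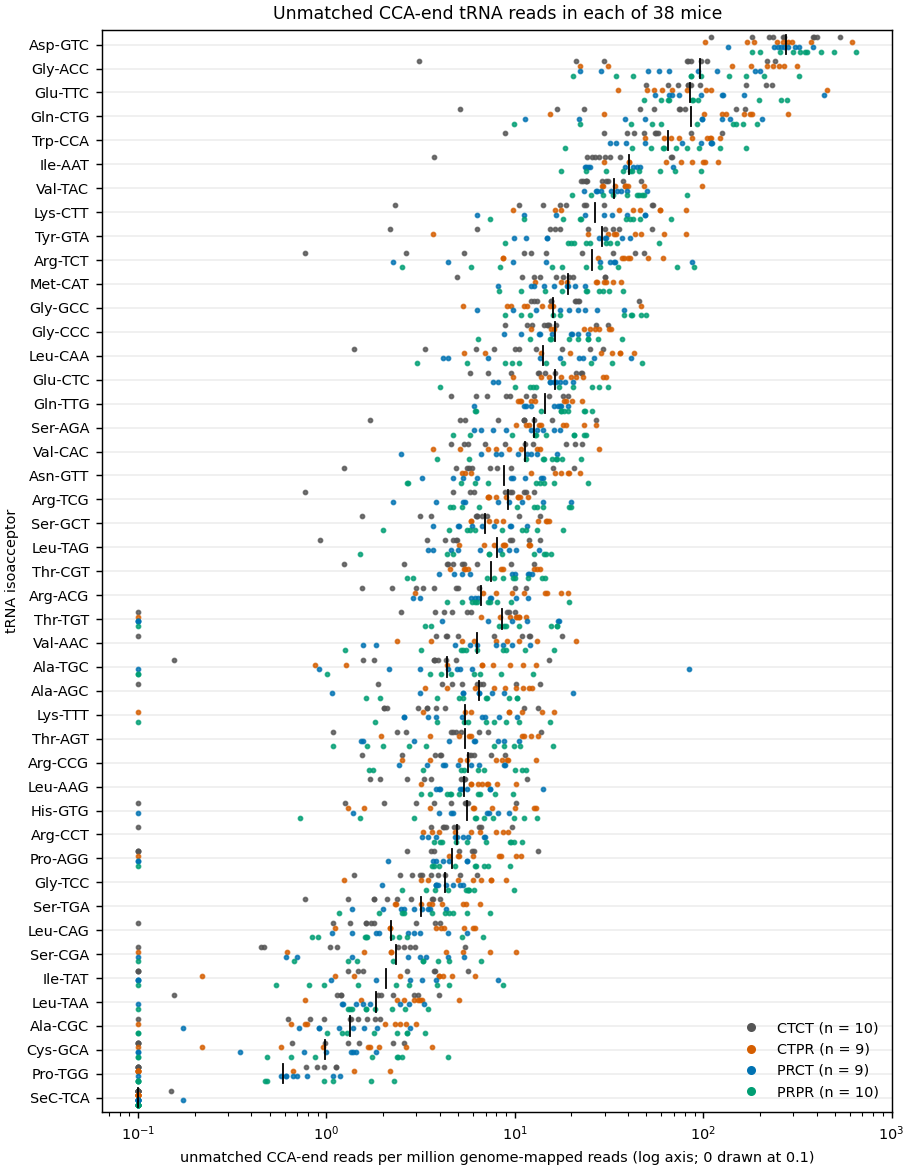
Unmatched CCA-end reads of the 45 isoacceptors in each of the 38 mice, in RPM on a log axis, with a point per mouse coloured by diet group and a black bar at the median of all mice (0 is drawn at 0.1). tRNA-Asp-GTC lies between 102 and 652 RPM, while tRNA-Gly-ACC spans 3.10 to 323 and the colours overlap in every isoacceptor.

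The order of the unmatched reads was not that of the tRNA reads as a whole. They were set beside the class of genome-matched tRNA reads with no end in its name, here called the whole class. By class totals, the matched classes of 34 of 38 mice added up to the genome-mapped reads, to within 10 reads in 1000000, with the 5′-end and 3′-end classes left out of the sum. In the remaining mice the difference reached 20.0% of the genome-mapped reads. The reads listed for single isoacceptors did not nest in that way. For 6 of the 45 the matched 5′-end reads exceeded the whole-class reads, with 58407 RPM beside 6774 for tRNA-Gly-CCC, 6600 beside 2477 for tRNA-Val-AAC and 178 beside 23.2 for tRNA-Gly-ACC. A ratio to the whole class therefore does not count every matched read of an isoacceptor. tRNA-Gly-GCC had 65877 whole-class RPM that matched the genome, the most of the isoacceptors named here, but only 0.0305 unmatched CCA-end reads for each 100 of them. tRNA-Glu-CTC had 21612 matched whole-class RPM and 0.0789 unmatched reads per 100. tRNA-Asp-GTC, with 2193 RPM, had 13.6 unmatched reads per 100.

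Against this, 2 isoacceptors had more unmatched CCA-end reads than genome-matched reads in either the whole or the 5′-end class. They were tRNA-Ile-AAT, with 210 unmatched reads per 100 whole-class reads and 4.21 RPM in the 5′-end class, and tRNA-Trp-CCA, with 103 per 100 and 0.884 RPM. tRNA-Gly-ACC had 528 per 100 whole-class reads, but its 178 RPM in the matched 5′-end class was above its 123 unmatched RPM. Against the matched 3′-end reads of the same isoacceptor, 38 of the 45 had more unmatched reads and 7 had as many or fewer. The 7 were tRNA-Met-CAT, tRNA-Asn-GTT, tRNA-Val-AAC, tRNA-Arg-CCT, tRNA-Ala-CGC, tRNA-Cys-GCA and tRNA-SeC-TCA. tRNA-Met-CAT had 20.6 unmatched RPM beside 27.5 matched 3′-end reads.

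CCA-end reads that did match the genome were fewer, 98592 in all mice, and covered 36 isoacceptors. For 34 of the 45 there was a genome-matched CCA-end row to set beside the unmatched one, and for 11 there was none. The 11 were tRNA-Asp-GTC, tRNA-Gly-ACC, tRNA-Trp-CCA, tRNA-Gln-TTG, tRNA-Ser-AGA, tRNA-Ser-GCT (its gene end is printed above), tRNA-Leu-TAG, tRNA-Ala-TGC, tRNA-Ser-TGA, tRNA-Ala-CGC and tRNA-SeC-TCA. Of the 5 most abundant isoacceptors, 3 therefore had only unmatched CCA-end reads. The other way round, matched reads without unmatched ones occurred for 2 isoacceptors, tRNA-Phe-GAA and tRNA-Ser-GGA.

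The unmatched share of CCA-end reads ranged widely between isoacceptors. Of the 41 with at least 10 such reads a mouse on average, 13 were over 90% unmatched and 7 had more matched than unmatched reads. The lowest pooled shares were 41.4% for tRNA-Pro-AGG, 42.2% for tRNA-Thr-TGT, 43.6% for tRNA-Ile-AAT, 44.2% for tRNA-Lys-CTT and 45.5% for tRNA-Lys-TTT. For tRNA-Pro-AGG, tRNA-Thr-TGT and tRNA-Lys-TTT, some mice had matched but no unmatched reads, a share of 0%, which lowers the pooled value. Their medians over mice with matched reads were 43.6, 44.6 and 46.6%. Apart from those with no matched row, the highest pooled shares were 98.2% for tRNA-Val-CAC, 97.3% for tRNA-His-GTG, 94.9% for tRNA-Ser-CGA and 90.1% for tRNA-Arg-TCG. The gene ends of tRNA-Val-CAC and tRNA-Arg-TCG are among those printed above.

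In some isoacceptors the share was held almost constant from mouse to mouse. For tRNA-Ile-AAT it lay between 41.4 and 46.1% in the 38 mice, and the SD of 1.09 percentage points was below the 2.38 that independent counting of the 2 kinds of read would give. For tRNA-Lys-CTT it lay between 41.4 and 49.5%, with an SD of 1.83 against 3.24 from counting. Matched and unmatched reads of these 2 isoacceptors kept a steadier ratio than separate counts do. tRNA-Gln-CTG was looser, at 44.3 to 62.3%, with an SD of 4.75 against 2.45.

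In a second set of isoacceptors the matched reads were either absent or in a narrow band, among mice with at least 10 reads. tRNA-Arg-TCT had none in 33 of 37 mice, and in the other 4 the unmatched share was 55.6 to 58.9%. tRNA-Gly-GCC had none in 29 of 38 mice, and in the other 9 the share was 55.4 to 68.1%. tRNA-Val-CAC had matched reads in 1 mouse, at 57.1% unmatched. The share in those mice was much the same from one isoacceptor to the next, and no mouse lay between the band and 100% for these 3. tRNA-Thr-CGT at 52.7 to 60.3% in 6 mice and tRNA-Arg-TCG at 55.6 to 60.7% in 4 mice were of the same kind.

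tRNA-Glu-TTC differed from both sets. Its unmatched share ran from 60.6 to 100% with mice spread between, and its SD of 10.8 percentage points stood against 1.51 from counting. Mice 02A8, 09H7, 14A5, 08G3 and 23F4 had 1353, 524, 526, 390 and 1394 matched reads of it, and the next highest, 57P1, had 162. All of the former but 23F4 come from litters described further on (02A, 08G, 09H and 14A). Since matched and unmatched values did not scatter as independent counts do, intervals for single mice, such as 90.1% (95% Wilson interval 89.0 to 91.1) for the unmatched share of all CCA-end reads in CTCT mouse 07C3, cover counting error only.

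**Figure D2:**
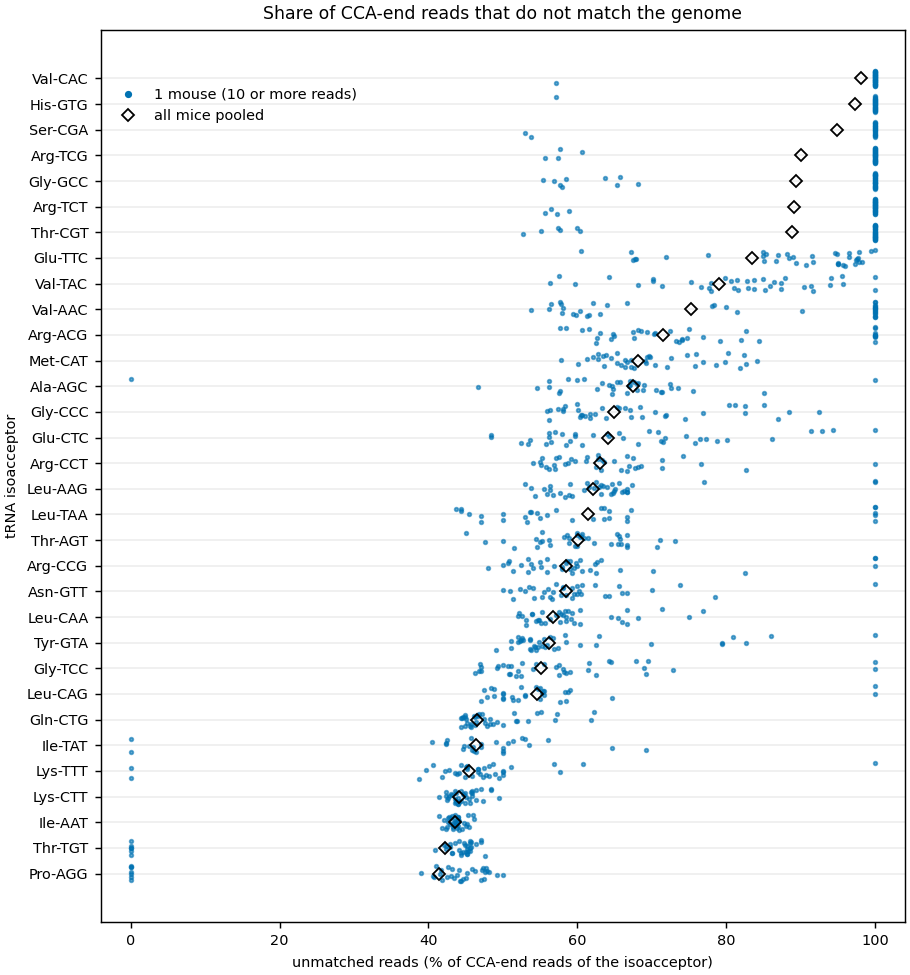
Unmatched reads as a percentage of the CCA-end reads of each isoacceptor, for the isoacceptors with both kinds of read, with a point per mouse (10 or more reads) and a diamond for all mice pooled. tRNA-Ile-AAT is packed between 41.4 and 46.1%, whereas tRNA-Arg-TCT has mice at 100% or at 55.6 to 58.9% and tRNA-Glu-TTC is spread from 60.6% upward.

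The abundant isoacceptors did not all move together across mice. Over the 38 mice, which share a library and a denominator within each point, 13 of the 20 most abundant isoacceptors had a Pearson r (of log2 values) above 0.6 with the piRNA share of the library and 4 had one below 0. For tRNA-Gly-ACC r was 0.84 with the piRNA share, 0.96 with the spermatogenic miRNAs, 0.91 with the muscle miRNAs and 0.89 with the epithelial miRNAs. For tRNA-Asp-GTC r with the piRNA share was -0.09 and for tRNA-Glu-TTC it was -0.54. These correlations describe the libraries and carry no test.

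Mice of litters 02A, 07C, 08G, 09H and 14A, 9 mice spread over the 4 groups, stood at the low end for one set of isoacceptors. This was noticed in the data. In them tRNA-Gly-ACC was at 3.10 to 42.6 RPM (median 22.3), against 34.5 to 323 (median 137) in the other 29 mice. tRNA-Gln-CTG was at 5.11 to 41.3 (median 16.8) against 22.3 to 284 (median 125). tRNA-Asp-GTC was not lower in them, at 110 to 619 (median 372) against 102 to 652 (median 269), and tRNA-Glu-TTC had a median of 168 against 74.4. The piRNA share of the same mice was 1.52 to 12.2% against 4.35 to 33.2%, and the muscle miRNAs were at 63.5 to 653 RPM against 501 to 8575. The part these play in the results below was not tested, and each group result is also given without the 5 litters where that changes it.

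**Figure D3:**
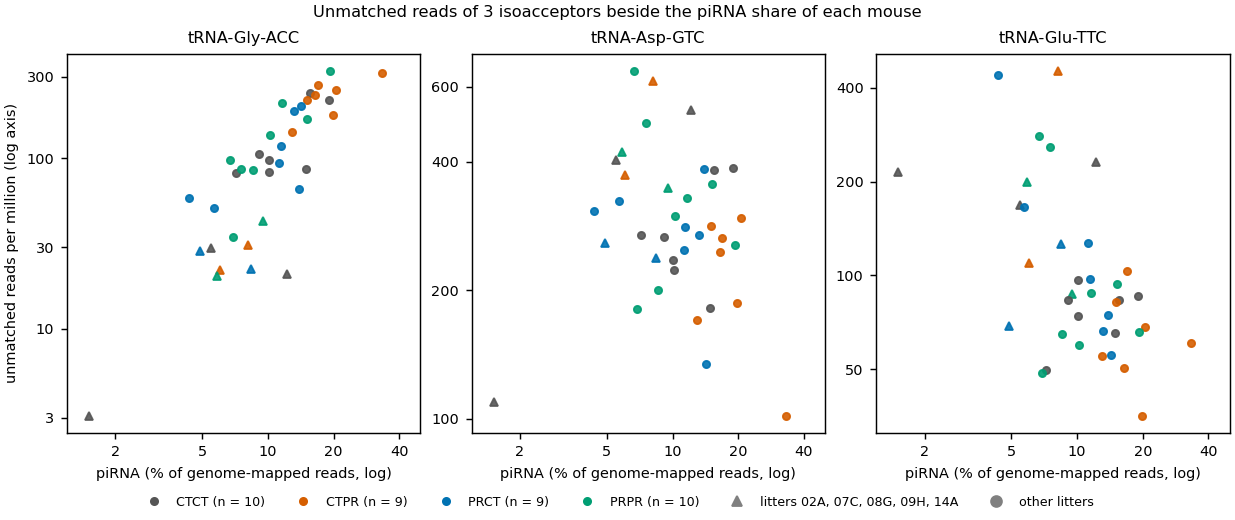
Unmatched reads (RPM) of tRNA-Gly-ACC, tRNA-Asp-GTC and tRNA-Glu-TTC against the piRNA share of genome-mapped reads, both on log axes, with a point per mouse coloured by diet group and triangles for 5 litters. tRNA-Gly-ACC follows the piRNA share (r = 0.84), tRNA-Asp-GTC does not (r = -0.09) and tRNA-Glu-TTC runs the other way (r = -0.54).

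The first question the design put to these reads was whether protein restriction, before or after weaning, moved their total. As a share of tRNA reads (here unmatched CCA-end, matched CCA-end and whole class) it did not differ between groups beyond the spread between mice. Reads listed only in the matched 5′-end or 3′-end class were not in this denominator, so it is not a share of every tRNA read. Unmatched reads were 1.19 ± 0.74% of tRNA reads in CTCT mice (SD, n = 10; lowest 0.73, median 0.96, highest 3.24). They were 0.99 ± 0.48% in CTPR mice (n = 9; 0.44, 0.93 and 1.92) and 1.05 ± 0.49% in PRCT mice (n = 9; 0.54, 0.99 and 2.14). In PRPR mice they were 1.18 ± 0.69% (n = 10; 0.48, 1.01 and 2.78). All 4 groups overlapped over most of their range. The difference from CTCT was -0.195 percentage points for CTPR (SE 0.282), and two-sided exact permutation tests gave p = 0.603 for CTPR and p = 0.693 for PRCT. A permutation test with 100000 resamples gave p = 0.979 for PRPR against CTCT, and an exact one gave p = 0.657 for PRPR against PRCT. The 3 comparisons with CTCT share the CTCT mice.

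Relative to genome-mapped reads, in RPM, the CTPR mice stood highest. The unmatched tRNA reads came to 996 ± 367 RPM in CTCT (SD, n = 10; lowest 465, median 927, highest 1668) and 1359 ± 303 in CTPR (n = 9; 909, 1433 and 1650). They came to 1068 ± 253 in PRCT (n = 9; 645, 1158 and 1339) and 1249 ± 462 in PRPR (n = 10; 472, 1241 and 1865). The CTPR mice lay within the range of the CTCT mice, with a higher median. On the log2 scale CTPR was above CTCT by 0.50 (SE 0.20, 95% interval 0.10 to 0.90), with an exact permutation p = 0.0281 that was 0.168 after Benjamini-Hochberg adjustment over 12 tests. The other comparisons differed by 0.15 (PRCT against CTCT, p = 0.511), 0.30 (PRPR against CTCT, p = 0.255) and 0.16 (PRPR against PRCT, p = 0.520), by the same permutation tests. No comparison passed after adjustment. Divided by matched CCA-end and whole-class tRNA reads in place of genome-mapped reads, the 3 differences from CTCT were -0.26, -0.15 and -0.05. The direction thus depended on the denominator.

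The third measure was the unmatched share of all CCA-end reads, which was chosen after the data were seen. It was lowest in CTPR, at 71.1 ± 6.22% (SD, n = 9; lowest 61.4, median 69.1, highest 82.6), and highest in CTCT, at 78.8 ± 6.45% (n = 10; 72.7, 77.4 and 90.1). PRCT was at 75.2 ± 4.99% (n = 9; 66.2, 75.4 and 82.9) and PRPR at 77.4 ± 4.37% (n = 10; 69.0, 78.4 and 82.1). Matched CCA-end reads were at 290 ± 180 RPM in CTCT and 581 ± 244 in CTPR, so the means of both kinds of read were higher in CTPR and that of the matched kind more so. The difference of -7.71 percentage points between CTPR and CTCT (SE 2.91, 95% interval -13.4 to -2.01) had an exact permutation p = 0.0163 and an adjusted p of 0.168. Without the 5 litters it was -6.83, with p = 0.00175 and an adjusted p of 0.0210 by the same exact test. Those litters were picked from the same data, and the adjusted p does not cover that choice. PRCT differed from CTCT by -3.64 points (p = 0.194), PRPR from CTCT by -1.43 (p = 0.567) and PRPR from PRCT by 2.21 (p = 0.315), by permutation tests.

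Whether the effect of the post-weaning diet depended on the diet before weaning was tested directly, by permuting diets within the pre-weaning groups. On the unmatched share of CCA-end reads the interaction was -9.93 percentage points (SE 3.63), with a permutation p = 0.0103 that was 0.0310 after adjustment over 3 measures. In offspring of control dams the mean was 71.1% with restriction after weaning and 78.8% without, and in offspring of restricted dams it was 77.4% with and 75.2% without. The same test gave p = 0.316 on RPM and p = 0.428 on the share of tRNA reads. The interaction was also computed with the deposited class totals in place of the isoacceptor counts. It was then -1.46 (permutation p = 0.931) with all mice and -9.32 (permutation p = 0.0959) without litter 47I. In that litter 1 mouse had a class total of 793519 matched CCA-end reads beside 3900 in its isoacceptors. The size without the litter was near that from the isoacceptor counts, but neither p was under 0.05.

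Littermates split between diets gave a further reading, since 8 litters held a CTPR and a CTCT mouse and 9 held a PRPR and a PRCT mouse. Within litters, the unmatched share was lower in the CTPR mouse in 7 of 8, with a mean difference of -6.25 points (SE 1.60), an exact permutation p = 0.0156 and an adjusted p of 0.0938 over 6 tests. RPM were higher in the CTPR mouse in 6 of 8 litters (p = 0.0313, adjusted 0.0938, exact permutation of signs). Between PRPR and PRCT littermates the unmatched share was higher in 7 of 9 litters, by 1.86 points (SE 0.925, exact p = 0.0742). With the litters kept together the interaction was -8.11 points (exact permutation p = 0.000576).

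The unmatched share of a mouse depends on which isoacceptors it has. Taking each isoacceptor at its share over all mice, the mix alone gave 77.0 ± 4.62% in CTCT (SD, n = 10), 72.3 ± 6.18% in CTPR (n = 9), 75.9 ± 5.40% in PRCT (n = 9) and 76.2 ± 4.12% in PRPR (n = 10). The difference between CTPR and CTCT in this computed share was -4.76 points, beside -7.71 in the measured share. The shares used were pooled over the same mice, and neither the -4.76 nor the remaining -2.96 was tested. The piRNA share moved with the same groups, at 10.5 ± 5.15% in CTCT, 16.6 ± 7.90% in CTPR, 9.71 ± 3.96% in PRCT and 10.1 ± 4.24% in PRPR. So did the summed muscle miRNAs (mir-143, mir-145a, mir-1a and mir-133a), at 63.5 to 3276 RPM in CTCT and 71.6 to 8575 in CTPR (means 1498 and 2921), the epithelial ones at 38.9 to 1294 and 34.2 to 2227 (means 595 and 980), and the spermatogenic ones at 17.3 to 848 and 76.4 to 1425 (means 379 and 772). In PRCT and PRPR the muscle miRNAs had means of 1494 and 1338 RPM. Summed blood miRNAs were at 2.01 to 18 RPM in CTCT and 1.90 to 50.4 in CTPR. The part of these shares and miRNAs in the difference was not tested.

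**Figure D4:**
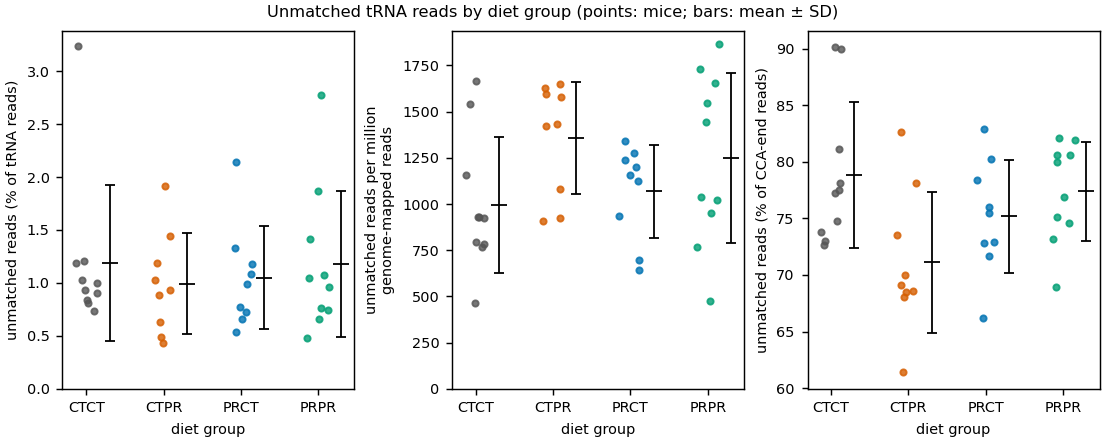
Unmatched tRNA reads of each mouse by diet group, as a percentage of tRNA reads (left), in RPM (middle) and as a percentage of CCA-end reads (right), with points for mice and bars for mean ± SD. CTPR is highest in the middle panel (1359 RPM) and lowest in the right one (71.1%), with overlap between all groups.

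Single isoacceptors were compared with edgeR's quasi-likelihood test, fitted over 14614 class members with genome-mapped reads as the library size. Of the 45, 43 had enough reads to be tested and tRNA-Pro-TGG and tRNA-SeC-TCA did not. With Benjamini-Hochberg adjustment over all 14614, none of the 43 passed 0.05 in any of the 4 comparisons, where 0, 0, 0.00684 and 0.00684% of all class members did.

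In CTPR against CTCT, 2 of the 43 had an unadjusted p under 0.05, both higher in CTPR, beside 4.52% of all class members (4.21% higher and 0.315% lower). Both are among the tRNAs whose wobble adenosine is converted to inosine. tRNA-Ile-AAT was at 3.72 to 68.1 RPM in CTCT (median 29.0) and at 29.9 to 120 in CTPR (median 76.7). Its log2 fold change was 1.10 (SE 0.42, edgeR p = 0.0122, adjusted p = 0.873), and the groups overlapped. Genome-matched CCA-end reads of tRNA-Ile-AAT had a log2 fold change of 1.11 in the same comparison (edgeR p = 0.0121), and its unmatched share was 43.8 ± 1.45% in CTCT and 43.6 ± 0.909% in CTPR.

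tRNA-Arg-ACG was at 1.55 to 11.5 RPM in CTCT (median 4.31) and at 2.94 to 19.2 in CTPR (median 11.2). Its log2 fold change was 1.17 (SE 0.44, edgeR p = 0.0117, adjusted p = 0.873). These are differences relative to genome-mapped reads, and the median of the 43 isoacceptors was itself 0.61, beside 0.69 for all other class members tested. With TMM scaling these medians were 0.13 and 0.19, and neither isoacceptor had an unadjusted p under 0.05.

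The most abundant isoacceptors had larger p-values. tRNA-Asp-GTC was at 299 ± 125 RPM in CTCT (lowest 110, median 268, highest 530) and 282 ± 149 in CTPR (102, 265 and 619), a log2 fold change of -0.08 (SE 0.34, edgeR p = 0.802). tRNA-Gly-ACC was at 96.8 ± 78.3 RPM in CTCT (3.10, 85 and 240) and 185 ± 102 in CTPR (22.1, 218 and 315), a log2 fold change of 0.93 with an SE of 0.58. The median mouse was thus more than double in CTPR, but the spread between mice was as large as the difference. tRNA-Glu-TTC was at 115 ± 64.9 in CTCT and 113 ± 129 in CTPR. The third smallest p in this comparison was that of tRNA-Leu-CAA, with a log2 fold change of 0.99 (SE 0.56, edgeR p = 0.0832).

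In PRCT against CTCT, none of the 43 had an unadjusted p under 0.05, beside 3.07% of all class members. The smallest p was that of tRNA-Ala-TGC, at 0.155 to 15.1 RPM in CTCT (median 3.76) and 0 to 84.6 in PRCT (median 4.45). Its log2 fold change was 1.52 (SE 0.89, edgeR p = 0.0946), with 1 PRCT mouse at 84.6 and the next at 5.93. tRNA-Thr-CGT (0.57, edgeR p = 0.196) and tRNA-Leu-AAG (0.45, edgeR p = 0.281) followed. In this comparison 33 of 43 fold changes were above 0, with a median of 0.14 beside -0.11 for the other class members.

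In PRPR against CTCT, none of the 43 had an unadjusted p under 0.05 either, beside 2.4% of all class members. tRNA-Gln-TTG had the smallest, at 4.56 to 19.2 RPM in CTCT (median 10.4) and 6.15 to 25.7 in PRPR (median 17.9). Its log2 fold change was 0.60 (SE 0.37, edgeR p = 0.116). tRNA-Val-TAC (0.51, edgeR p = 0.128) and tRNA-Thr-CGT (0.66, edgeR p = 0.130) came next. Here 41 of 43 fold changes were above 0, with a median of 0.42 beside 0.00 for the other class members. With TMM scaling the 2 medians were 0.38 and 0.00. The isoacceptors share their libraries, so this is a description of 20 libraries and not 43 separate results.

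In PRPR against PRCT, the comparison within offspring of restricted dams, again none of the 43 had an unadjusted p under 0.05, beside 2.33% of all class members. tRNA-Ala-TGC had the smallest p, 0.123 by edgeR, with the same PRCT mouse at 84.6. tRNA-Met-CAT (0.48, edgeR p = 0.216) and tRNA-Gly-GCC (0.53, edgeR p = 0.245) followed, both with means higher in PRPR. tRNA-Asp-GTC was at 272 ± 68.5 RPM in PRCT (lowest 135, median 269, highest 385) and 353 ± 141 in PRPR (181, 338 and 652), a log2 fold change of 0.38 (SE 0.34, edgeR p = 0.268). The median of the 43 was 0.26, beside 0.09 for the other class members.

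**Figure D5:**
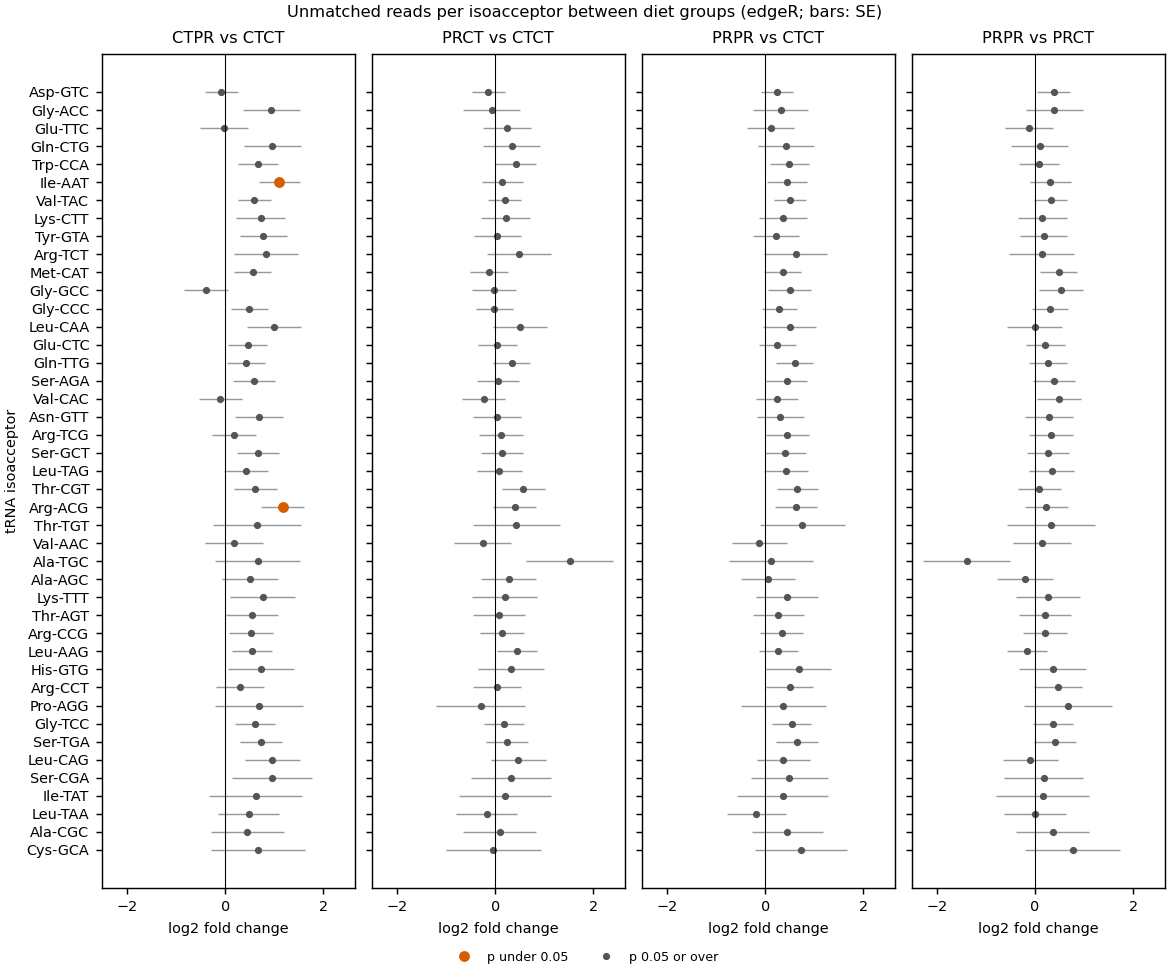
Log2 fold change of unmatched reads for the 43 tested isoacceptors in the 4 diet comparisons (edgeR with genome-mapped reads as library size), ordered by abundance, with bars of ±1 SE. tRNA-Ile-AAT (1.10) and tRNA-Arg-ACG (1.17) in CTPR against CTCT are the 2 points with an unadjusted p under 0.05, and none passes after adjustment.

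The ratio of unmatched to matched CCA-end reads was compared for each isoacceptor with limma on the log2 scale, fitted over 3648 features, 32 of the isoacceptors among them. None of the 32 passed after adjustment in any comparison, where 0.0274, 0, 0 and 0% of all features did. In CTPR against CTCT 1 of the 32 had an unadjusted p under 0.05, beside 8.36% of all features. This was tRNA-Glu-TTC, whose log2 ratio in CTPR minus that in CTCT was -2.19 (SE 0.96, limma p = 0.0275, adjusted p = 0.595). Its unmatched share was 91.7 ± 9.53% in CTCT (SD, n = 10) and 82.1 ± 10.8% in CTPR (n = 9). Without litter 02A the difference in log2 ratio was -1.66 (limma p = 0.106), and with the litters as a block it was -1.24 (limma p = 0.329).

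In PRCT against CTCT, tRNA-Thr-CGT was the 1 of 32, beside 4% of all features. Its log2 ratio was higher in PRCT by 2.58 (SE 1.08, limma p = 0.0213, adjusted p = 0.993), and none of the 9 PRCT mice had a matched read of it. In PRPR against CTCT there was none of 32, beside 3.12%. In PRPR against PRCT, tRNA-Gly-GCC was the 1 of 32, beside 3.32%, higher in PRPR by 2.99 (SE 1.37, limma p = 0.0347, adjusted p = 0.999). Both belong to the isoacceptors whose matched reads were absent or in a narrow band, so these ratios depended on how many mice had any matched read.

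Isoacceptors were also grouped by what is known of their tRNAs. The 8 with an inosine wobble base included the 2 named above in CTPR against CTCT, beside 4.52% of all class members, and neither kept its unadjusted p with TMM scaling. All 8 of their fold changes were above 0 with a median of 0.57, where 39 of all 43 were above 0 with a median of 0.61. None of the 8 had an unadjusted p under 0.05 in the other comparisons. The 4 whose genes carry an intron had a median of 0.80 in CTPR against CTCT, and the 4 with a queuosine wobble base had 0.71, with none under 0.05 in any comparison. Of the 3 Dnmt2 substrates, tRNA-Asp-GTC, tRNA-Gly-GCC and tRNA-Val-AAC, none had an unadjusted p under 0.05. The same held for the ratio, except for tRNA-Gly-GCC in PRPR against PRCT.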

How the data were processed

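Small RNA libraries were made from the sperm of 38 mice and sequenced by the authors, who annotated the reads with SPORTS 1.0 on mm10. The deposited values are raw read counts per annotated class and class member, with no normalisation by the authors, and no molecular identifiers are described, so intervals and floors cover counting error only. The unmatched tRNA reads were summed from the isoacceptors because class totals of some mice were incomplete or differed from them. The isoacceptors and lists were chosen with earlier results of these data known. Replicates were separate mice of a group, and litters came from the mouse names in the labels. Littermates' deviations from their group means correlated at a median of 0.460 (lowest 0.0849, 8 litters of control dams) and 0.390 (lowest -0.243, 9 litters of restricted dams), so not every pair deviated together.

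Class members with low counts were removed by edgeR's filter, and 14614 remained. They were tested with edgeR 4.0.16 (quasi-likelihood, genome-mapped reads as library size, as in the study) and adjusted by the Benjamini-Hochberg method over all of them. Log2 ratios of unmatched to matched reads, with a pseudocount of 0.5 reads and a mean of at least 10 reads, were tested with limma 3.58.1. Values per mouse were compared by two-sided permutation tests with SciPy 1.17.1, exact where a group had 9 mice and with 100000 resamples otherwise, and adjusted over 12 tests. The interaction used 100000 resamples. Correlations across mice used log2(RPM + 0.5). Scripts were tested on simulated data. Named isoacceptors were the 20 most abundant, those with introns, the histidine and selenocysteine tRNAs, the 3 smallest p in each comparison and the 5 highest and lowest unmatched shares. The planned CCA-end percentage of unmatched reads was 100 in every mouse, and the unmatched percentage of CCA-end reads, chosen after the data were seen, took its place. Gene ends came from RefSeq and GENCODE vM21 tables of GRCm38.p6. Alternatives were TMM and DESeq2 1.42.0 size factors, the DESeq2 Wald test, no filter, other denominators, a litter block, tRNA members alone and leaving out litters or mice.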

Additional observations from a re-analysis of the deposited data

Results flagged for a closer look

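In 132 groups of 9 or 10 mice, 22 held a highest or lowest mouse that stood far from the rest by Dixon's test at the 95% level. Chance flags about 1 in 20 groups, and groups that share a mouse are not independent. As a share of tRNA reads, the unmatched total was 3.24% in CTCT mouse 09H7 (next 1.21%) and 2.14% in PRCT mouse 23F4 (next 1.33%).

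CTPR mouse 02A8 stood apart in several isoacceptors. It had 452 unmatched RPM of tRNA-Glu-TTC (next 110), 99.2 of tRNA-Val-TAC (next 48.5) and 46.6 of tRNA-Gly-GCC (next 16), but only 3.70 of tRNA-Tyr-GTA (next 24.4) and 0 of tRNA-Pro-AGG and of tRNA-Thr-TGT. Of the last 2 it did have matched CCA-end reads, 51 and 38. Its CTCT littermate 02A6 was high in tRNA-Gly-GCC too, at 45.9 (next 22.1). PRCT mouse 59L1 had 84.6 RPM of tRNA-Ala-TGC (next 5.93) and 14.2 of tRNA-Leu-AAG (next 7.41), beside a low 2.50 of tRNA-Val-CAC (next 6.64). CTCT mouse 07C3 was low in tRNA-Ile-AAT at 3.72 (next 24.2) and in tRNA-Arg-TCG at 0.774 (next 4.69).

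The other single values were tRNA-Asp-GTC at 135 RPM in PRCT mouse 40H1 (next 238), tRNA-Gln-TTG at 6.08 in PRCT mouse 23F4 (next 11.2), tRNA-Arg-ACG at 19.5 in PRPR mouse 40H3 (next 9.54) and tRNA-Leu-AAG at 3.16 in CTPR mouse 09H5 (next 5.86). No unmatched read was found of tRNA-Pro-AGG in PRPR mouse 51O3 or of tRNA-Lys-TTT in CTPR mouse 56I1. The same held for tRNA-Thr-TGT in CTCT mouse 49K1 and PRPR mouse 14A5. The other mice of those groups had some. Matched CCA-end reads of the same isoacceptor were present in these mice, at 14 (51O3), 52 (56I1), 41 (49K1) and 26 (14A5).

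The test for an interaction of the diets before and after weaning passed on the unmatched share of CCA-end reads, a measure chosen after the data were seen. With all mice, no comparison between groups on this measure passed after adjustment (smallest adjusted p = 0.168, exact permutation test). The interaction was -9.93 percentage points (permutation p = 0.0103, adjusted p = 0.0310 over 3 measures). The same permutation test gave p = 0.316 on RPM and p = 0.428 on the share of tRNA reads. The interaction was not kept with the deposited class totals in place of the isoacceptor counts.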

How the results depend on the processing

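Most results kept their direction and their side of the threshold, in 296 of 331 values under alternatives for the group measures and counts and in 48 of 62 for named isoacceptors, where the others lost an unadjusted p under 0.05 and none turned. The unmatched share of tRNA reads changed direction in PRPR against CTCT with the 47I littermates exchanged (0.0114), without the 5 litters (0.206) and with class totals (0.174), and in PRCT against CTCT without the 5 litters (0.0438). The unmatched share of CCA-end reads passed after adjustment in CTPR against CTCT without the 5 litters (-6.83). The adjustment does not cover the choice of those litters, which were picked from the same data. Without them the share turned in PRPR against CTCT (1.11), and with class totals it turned in PRCT (6.24) and PRPR (6.70). Its interaction lost significance with class totals (-1.46; -9.32 without litter 47I). RPM turned with matched CCA-end and whole-class tRNA reads as denominator (-0.263, -0.154 and -0.0464 for CTPR, PRCT and PRPR against CTCT). The causes were not tested.

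Counts of isoacceptors with an unadjusted edgeR p under 0.05 in CTPR against CTCT, 2 as reported, were 0 with TMM, with DESeq2 size factors and with no filter, 1 with the 47I littermates exchanged, 5 with edgeR's newer dispersion fit and with tRNA members alone, and 6 with the DESeq2 Wald test. In PRCT against CTCT the count of 0 was 1, tRNA-Ala-TGC, without litter 47I or without the 5 litters. In PRPR against CTCT it was 3 with the DESeq2 Wald test and 2 with tRNA members alone, and in PRPR against PRCT 1, again tRNA-Ala-TGC, without the 5 litters. For the limma ratio, the count of 1 in CTPR against CTCT was 2 with the 47I littermates exchanged and 0 with the litter as a replicate block, without litter 02A, without the 5 litters or without mice 07C3, 35F2, 31A3 and 08G5. In PRPR against CTCT it was 1 with 47I exchanged or left out, and in PRPR against PRCT 0 with the litter block, without the 5 litters or without the same 4 mice. With the litter block, RPM differed by 0.406 in CTPR against CTCT (adjusted p = 0.0938, exact permutation of signs). Apart from the 2 limma counts just given and the isoacceptors in them, tRNA-Glu-TTC and tRNA-Gly-GCC, the litter block changed no call.

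The alternatives that leave out CCA-end reads or take the planned CCA-end percentage gave no value, since every unmatched tRNA read was a CCA-end read. The measure in its place and its alternatives, the class totals, the interaction on it and the fits without the 5 litters or mouse 59L1 were added after the data were seen. Depth limits isoacceptors under 10 reads a mouse.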
